A study of Sus scrofa with 30 samples.

Results

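The plasma miRNAs described here are the rows of the deposited table named ssc-miR-17, ssc-miR-18, ssc-miR-19, ssc-miR-20, ssc-miR-93 or ssc-miR-106, with any letter or arm after that number. The rule found 9 of 411 rows, namely ssc-miR-17-3p, ssc-miR-17-5p, ssc-miR-18a, ssc-miR-18b, ssc-miR-19a, ssc-miR-19b, ssc-miR-20a, ssc-miR-20b and ssc-miR-106a, and 0 rows for ssc-miR-93. All 9 rows passed the filter on low counts, as did the other rows of the table. The study followed 3 young male Göttingen minipigs (GMPs), a small pig used to model human radiation injury, through total body irradiation (TBI) with a single dose of 2.2 Gy. Small RNA of plasma was sequenced, with 1 library per GMP at each of 10 time points. C7 and C1, drawn 7 days and 1 day ahead of TBI, are pooled as the pre-TBI baseline. The later libraries form the Early phase (0d, which is the day of TBI, 1d, 3d and 7d), the Mid phase (10d and 14d), the Late phase (17d) and the Late Regression or LR phase (20d), phases that the study took from a principal component analysis of these libraries. The same animals gave all time points, and no unirradiated animals were followed in parallel, so time and TBI cannot be told apart. These GMPs were the vehicle controls of a countermeasure study, so all received dextrose injections after TBI, and antibiotics were given when neutrophils were low.

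miRNAs are short RNAs that bind partly matching sites in messenger RNAs, lower their output, and are read mainly through the seed, bases 2 to 8 from the 5′ end. The miR-17-92 cluster is a single precursor that holds miR-17, miR-18a, miR-19a, miR-20a, miR-19b and miR-92a. It is driven by MYC and E2F factors, supports the growth and survival of B cell and other blood precursors, and is known as an oncogene in lymphoma. Its paralogue, the miR-106a-363 cluster, holds miR-106a, miR-18b, miR-20b, miR-19b, miR-92a and miR-363. In the RefSeq table of assembly Sscrofa11.1, MIR18A, MIR19A, MIR20A, MIR19B-1 and MIR92A-1 were on the same chromosome as MIR17. MIR106A, MIR18B, MIR19B-2 and MIR92A-2 were not on that chromosome. Positions along the chromosomes were not compared. MIR20B and MIR363 were not matched there. The row ssc-miR-19b can hold reads of both clusters, since both encode it. The 9 rows fall into 3 seed families and 1 passenger strand. The miR-17 seed is shared by miR-17-5p, miR-20a, miR-20b and miR-106a, miR-18a and miR-18b share another, and miR-19a and miR-19b share yet another. The 2 arms of the miR-17 hairpin are shown because they are counted as separate rows and carry different seeds, and miR-92a-3p is shown as the cluster partner whose seed none of the 9 rows has. The seeds, 5′ to 3′ and all in capitals because every base shown is seed, are those that the study lists.
miR-17-5p: AAAGUGC
miR-17-3p: CUGCAGU
miR-92a-3p: AUUGCAC

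Of 30 libraries, 24 held at least 1000 counts and were used. They are 6 pre-TBI, 10 Early, 4 Mid, 2 Late and 2 LR libraries. The 6 left out were those of minipig 3 from 3d to 20d, which held at most 17 counts in all and 0 counts of the 9 rows. Mid, Late and LR thus rest on minipigs 1 and 2. Totals of the libraries used ran from 24341 to 550316 counts, the median being 240612. The 6 Mid and Late libraries were among the 7 smallest, with 35762 to 103083 counts at Mid and 29159 and 63441 at Late, so low depth and these phases cannot be told apart. The 9 rows together took 0.114% to 0.254% of a library's counts, with a median of 0.166%. The median count per library ran from 20 for ssc-miR-20a to 78 for ssc-miR-17-3p. Levels are given as log2 CPM, which scales counts to the size of the library, with TMM factors and a prior count of 2, and differences between them as log2 units. In plasma, fewer cells that release a miRNA and less of it released per cell cannot be told apart.

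Before TBI the passenger strand ssc-miR-17-3p led the group, and ssc-miR-18b, ssc-miR-20a and ssc-miR-18a had the lowest levels. The mean level over 6 libraries was 8.47 ± 0.45 (SD) log2 CPM for ssc-miR-17-3p, 8.30 ± 0.65 for ssc-miR-19b and 8.26 ± 0.27 for ssc-miR-20b. A middle group followed, with ssc-miR-17-5p at 7.58 ± 0.60, ssc-miR-19a at 7.54 ± 1.11 and ssc-miR-106a at 7.46 ± 0.50 log2 CPM. The lowest levels were those of ssc-miR-18b at 6.63 ± 0.24, ssc-miR-20a at 6.53 ± 1.33 and ssc-miR-18a at 5.88 ± 1.47 log2 CPM. Without the C7 library of minipig 1, which had 0 counts of ssc-miR-18a, the mean of ssc-miR-18a over the other 5 libraries was 6.47 ± 0.28 and ssc-miR-20a was lowest, at 6.07 ± 0.80 log2 CPM. Neighbours in this order were not well separated, since they stood in it in only 3 to 5 of 6 libraries. The step from ssc-miR-106a to ssc-miR-18b, 0.83 ± 0.46 (SD of the difference), was the only one larger than its spread, and it held in 5 of 6 libraries. Over all 24 libraries, ssc-miR-106a varied least, with an SD of 0.39, and ssc-miR-19a most, with an SD of 1.23. The SD of 7 of 9 rows lay above 0.682, the median over the 411 rows. Close to that median were ssc-miR-17-5p at 0.684, ssc-miR-17-3p at 0.711 and ssc-miR-19b at 0.717. The SDs of ssc-miR-18a and ssc-miR-20b include libraries with 0 counts. By mean level the 9 rows ranked from 260 to 395 among the 411, and their SDs were not compared with those of rows of like level.

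**Figure D1:**
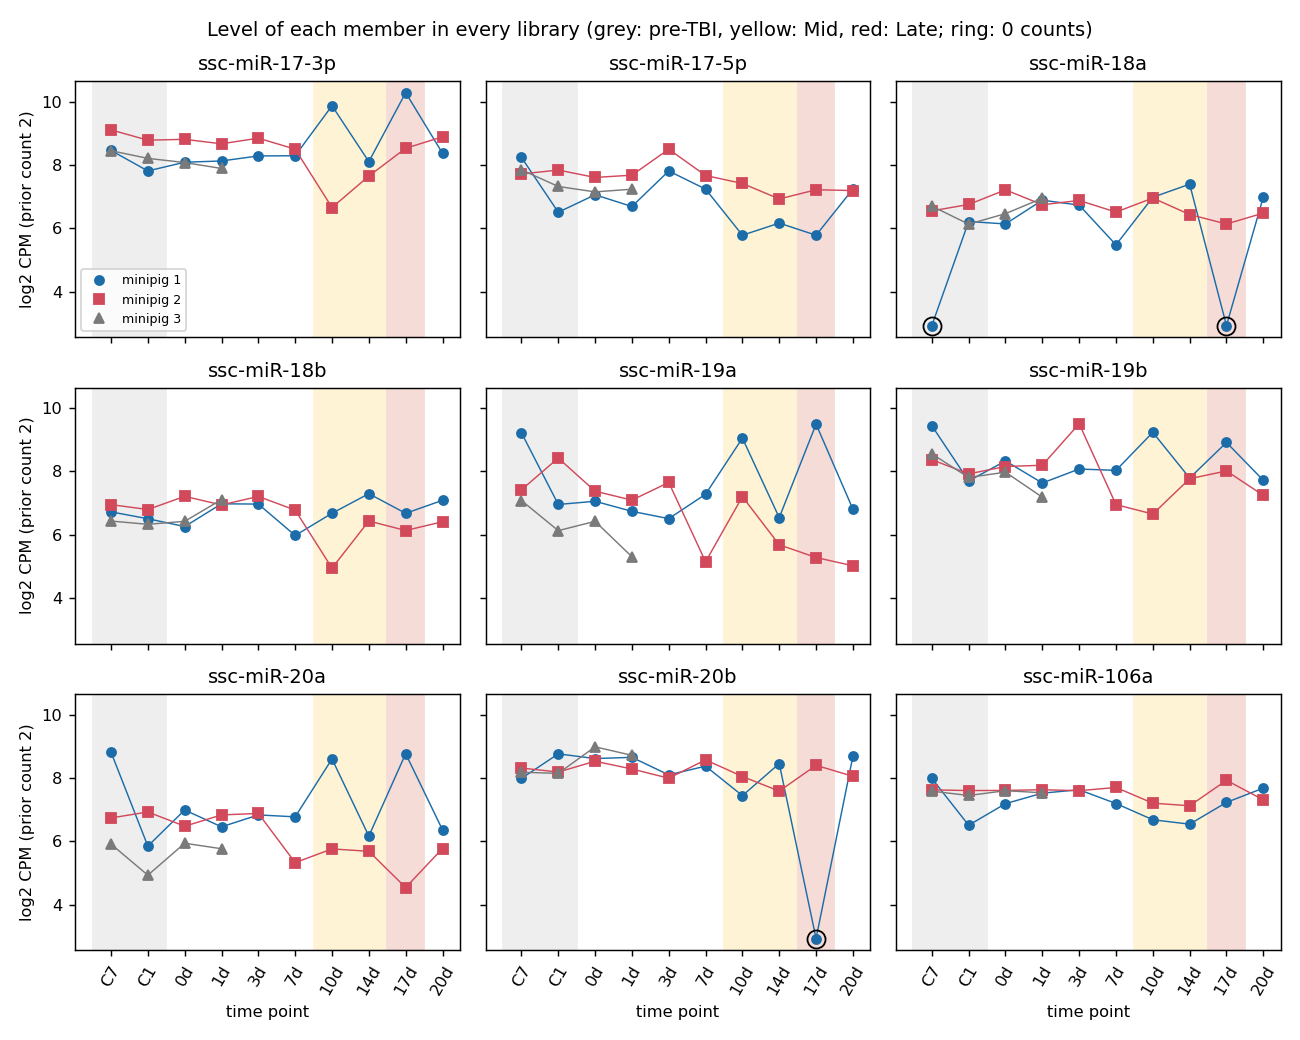
Level of each of the 9 rows in every library, in log2 CPM (prior count 2), by time point and minipig; rings mark libraries with 0 counts. ssc-miR-106a ranged from 6.51 to 7.98 log2 CPM before TBI and from 6.54 to 7.21 at Mid, while ssc-miR-19a and ssc-miR-20a reached their highest values in the libraries of minipig 1 at C7, 10d and 17d.

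Among the 4 rows with the miR-17 seed, ssc-miR-17-5p and ssc-miR-106a had lower means at Mid than before TBI, and neither difference passed the adjusted test. ssc-miR-17-5p, the guide strand that represses inhibitors of the cell cycle such as p21 and pro-apoptotic Bim, ranged from 6.51 to 8.24 log2 CPM before TBI, with a median of 7.78. At Mid its level was 5.79 at 10d and 6.17 at 14d in minipig 1, and 7.42 and 6.93 in minipig 2, on 2, 6, 7 and 13 counts. Both Mid libraries of minipig 1 were below every pre-TBI library and both of minipig 2 were within the pre-TBI range. The fitted log2 fold change of ssc-miR-17-5p at Mid was -0.96 (SE 0.41, 95% interval -1.81 to -0.12), with an unadjusted p under 0.05 and an adjusted p = 0.808 in edgeR's quasi-likelihood test with Benjamini-Hochberg adjustment over 411 rows. It was lower than the same animal's own baseline in 2 of 2 minipigs, by -1.40 and -0.60 log2 CPM. The baseline of minipig 1 averages a C7 library of 24341 counts with C1, and against C1 alone its value was -0.53, while the fitted value without that C7 library was -0.95 (adjusted p = 0.463 in edgeR). Its Late libraries were at 5.79 and 7.22 log2 CPM on 1 and 9 counts, and the LR libraries at 7.24 and 7.19 on 48 and 100 counts, both within the pre-TBI range. Of its 8 time points, only 14d had an unadjusted p under 0.05, with a log2 fold change of -1.06 (SE 0.48, adjusted p = 0.534 in edgeR).

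ssc-miR-106a, the product of the paralogous cluster with the same seed as miR-17-5p, ranged from 6.51 to 7.98 log2 CPM before TBI, with a median of 7.59. At Mid its 4 libraries were at 6.68 and 6.54 in minipig 1 and 7.21 and 7.12 in minipig 2, on 4 to 15 counts, and all 4 lay within the pre-TBI range. The fitted log2 fold change was -0.60 (SE 0.26, 95% interval -1.13 to -0.06, adjusted p = 0.808 in edgeR, again with an unadjusted p under 0.05), and its mean was below the animal's own baseline in 2 of 2 minipigs. Against C1 alone the Mid mean of minipig 1 was 0.10 log2 CPM higher, so the direction in that animal rests on its C7 library, which held 5 counts of this row. The C1 value, 6.51 log2 CPM, was itself the lowest of this row before TBI and is flagged as an outlier below. The fitted value without C7 of minipig 1 was -0.60 (adjusted p = 0.463 in edgeR). With a term for the minipig, ssc-miR-17-5p still had an unadjusted p under 0.05 (adjusted p = 0.665) and ssc-miR-106a, at -0.55 (SE 0.27), no longer did (adjusted p = 0.679). Leaving out 1 minipig at a time, ssc-miR-17-5p at Mid ran from -1.56 without minipig 2 to -0.65 without minipig 1 and kept an unadjusted p under 0.05 only without minipig 2, while ssc-miR-106a ran from -0.82 to -0.49 and lost it each time. At Early its 10 libraries lay between 7.19 and 7.70 log2 CPM, all within the pre-TBI range, and the interval of its log2 fold change, -0.32 to 0.43, was the narrowest of the 9 rows.

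The remaining rows with this seed, ssc-miR-20a and ssc-miR-20b, had unlike levels and unlike patterns. ssc-miR-20b was the higher of the pair in 21 of 24 libraries, with 2052 counts against 463 in all. At Mid ssc-miR-20b was at 7.44 and 8.45 log2 CPM in minipig 1 and 8.05 and 7.59 in minipig 2, and the mean of each was below its own baseline, by -0.42 and -0.43, or by -0.81 in minipig 1 against C1 alone. The fitted log2 fold change was -0.35 (SE 0.36, adjusted p = 0.97 in edgeR). At 17d it had 21 counts in minipig 2 and 0 counts in minipig 1. At the mean pre-TBI level of minipig 1, that 17d library of 29159 counts would have held 7.07 counts. Against a floor of 3 counts for that library the level was at least 2.36-fold lower than that mean. The bound covers counting error of the 17d library only and takes the mean as exact. That mean joins 246 CPM at C7, on 5 counts, with 426 CPM at C1. At LR ssc-miR-20b was at 8.68 log2 CPM in minipig 1 and at 8.05 in minipig 2, where it had been at 8.40 at 17d. ssc-miR-20a had log2 fold changes of -0.07 (SE 0.56) at Early, 0.43 (SE 0.75) at Mid, 0.92 (SE 1.06) at Late and -0.54 (SE 0.83) at LR. Its Late libraries, at 8.77 and 4.55 log2 CPM on 9 and 1 counts, lay at opposite ends of its range. At LR it was below the animal's own baseline by -0.97 in minipig 1 and -1.06 in minipig 2. Against C1 alone minipig 1 was 0.51 log2 CPM higher. With a term for the minipig the LR value was -1.00 (SE 0.70, adjusted p = 0.475 in edgeR).

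ssc-miR-18a and ssc-miR-18b, which share a seed and sit in the paralogous clusters, had counts that agreed within sampling noise. They had 590 and 629 counts in all, never differed by more than 10 counts in a library, and were equal in 3 of 24 libraries. A chi-square test of their counts over libraries gave 0.52 per degree of freedom over 23, which is less than independent counting of separate reads gives, around 1 per degree of freedom. How reads that match both sequences were counted is not given in the sources used here, so whether both rows hold some of the same reads is not known. Their levels nonetheless had a Pearson r of 0.15 over 24 libraries and 0.50 over the 21 without those of minipig 1 at C7, 10d and 17d, with log2 differences, 18a minus 18b, from -3.79 to 2.0. Before TBI ssc-miR-18b ranged from 6.33 to 6.96 log2 CPM on 2 to 45 counts. At Early its 10 libraries ranged from 5.98 to 7.22, with 5 above and 2 below the pre-TBI range. The log2 fold changes at Early were 0.27 (SE 0.28) for ssc-miR-18a and 0.24 (SE 0.25) for ssc-miR-18b, and at LR 0.34 (SE 0.42) and 0.16 (SE 0.37). At Mid they were 0.58 (SE 0.39) and 0.01 (SE 0.35), and 3 of 4 libraries of ssc-miR-18a, but 1 of 4 of ssc-miR-18b, lay above the pre-TBI range, on 5 to 15 and 1 to 14 counts. At Late they were -0.83 (SE 0.70) and -0.32 (SE 0.56), on at most 4 counts per library. The difference between the rows' fold changes was not tested. ssc-miR-18a had 0 counts in minipig 1 at C7 and at 17d, libraries in which ssc-miR-18b had 2 counts each. At the level of the C1 library of that animal, C7 would have held 1.36 counts, so the zeros are not detectable as a lower level at this depth, and no fold is given for them.

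**Figure D2:**
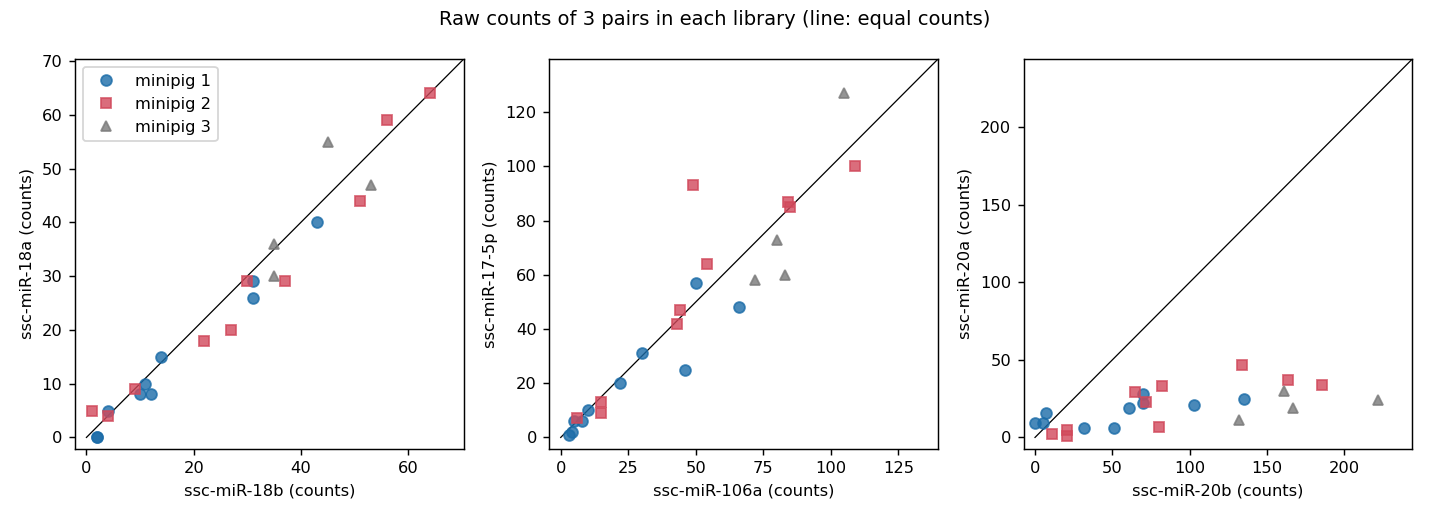
Raw counts of ssc-miR-18a against ssc-miR-18b, ssc-miR-17-5p against ssc-miR-106a and ssc-miR-20a against ssc-miR-20b in each of 24 libraries, coloured by minipig, with the line of equal counts. The first pair follows the line within 10 counts, the second scatters around it by up to 44 counts, and ssc-miR-20a lies below the line in 21 libraries.

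The pair ssc-miR-17-5p and ssc-miR-106a was also close, with 1071 and 1088 counts in all and a chi-square of 1.56 per degree of freedom over 23. Such closeness was not limited to rows with a shared seed, since ssc-miR-106a gave 1.26 with ssc-miR-18b and 1.43 with ssc-miR-18a. They differed by up to 44 counts, in minipig 2 at 3d, where ssc-miR-17-5p had 93 counts and ssc-miR-106a had 49. Their levels had a Pearson r of 0.73 over 24 libraries, and how reads common to both are divided is not given either, so their similar values at Mid are not 2 independent measurements for certain. Of the other pairs with a shared seed, ssc-miR-20b and ssc-miR-106a had 2.14 per degree of freedom, ssc-miR-20a and ssc-miR-106a 4.37, ssc-miR-17-5p and ssc-miR-20a 4.67, ssc-miR-19a and ssc-miR-19b 6.10, ssc-miR-17-5p and ssc-miR-20b 6.11, and ssc-miR-20a and ssc-miR-20b 7.95.

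The miR-19 rows, whose family carries much of the cluster's oncogenic activity, had the largest fitted difference in any phase. ssc-miR-19a ranged from 6.13 to 9.22 log2 CPM before TBI, with a median of 7.25. At LR it was at 6.81 in minipig 1 and 5.03 in minipig 2, on 35 and 18 counts, of which the second lay below every pre-TBI library. The log2 fold change at LR was -1.65 (SE 0.95, 95% interval -3.61 to 0.31, adjusted p = 0.593 in edgeR), and the level was lower than the animal's own baseline in 2 of 2 minipigs, by -1.28 and -2.90. Against C1 alone the value of minipig 1 was -0.15, and the fitted value without its C7 library was -1.56 (adjusted p = 0.679 in edgeR). At Early the 10 libraries ranged from 5.15 to 7.65, with a median of 6.90, and 2 of them lay below the pre-TBI range. The log2 fold change there was -0.86 (SE 0.56, 95% interval -2.02 to 0.29, adjusted p = 0.371 in edgeR), and the mean of each of 3 minipigs was lower than its own baseline, by -0.74 to -1.19 log2 CPM. The -1.19 was that of minipig 1, and against C1 alone it was -0.06, while the fitted value without its C7 library was -0.67 (adjusted p = 0.689 in edgeR). With a term for the minipig, ssc-miR-19a had a log2 fold change of -1.04 (adjusted p = 0.212) at Early and -2.24 (adjusted p = 0.3) at LR, both with an unadjusted p under 0.05. The LR value was -0.73 without minipig 2 and -2.75 without minipig 1 in edgeR, each resting on 1 LR library. Without minipig 3 it was -2.18 (adjusted p = 0.594 in edgeR), with an unadjusted p under 0.05.

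At Late the 2 libraries of ssc-miR-19a lay far apart, at 9.49 in minipig 1, above every pre-TBI library, and at 5.29 in minipig 2, below every one of them. The phase mean of 7.39 ± 2.97 (SD, n = 2) therefore stands for neither animal. ssc-miR-19b ranged from 7.70 to 9.44 log2 CPM before TBI and was at 7.72 and 7.25 at LR, on 68 and 104 counts. Its log2 fold change at LR was -0.85 (SE 0.59, 95% interval -2.07 to 0.37, adjusted p = 0.593 in edgeR), with values of -0.85 within minipig 1 and -0.90 within minipig 2. Against C1 alone minipig 1 was 0.02 log2 CPM higher, so its lower value rests on the C7 library, where this row had 14 counts. The level of ssc-miR-19b exceeded that of ssc-miR-19a in 21 of 24 libraries, by 0.76 ± 0.81 before TBI and by 1.34 ± 0.44 at Early (SD), and these ranges overlapped.

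ssc-miR-17-3p, the strand opposite the guide in the miR-17 hairpin and usually described as the less abundant one, had more counts than ssc-miR-17-5p in 23 of 24 libraries. The log2 difference, 3p minus 5p, averaged 0.89 ± 0.44 (SD) in the 6 pre-TBI libraries and 0.89 ± 0.33 in the 10 Early ones, and every library of these phases had the 3p strand ahead. In minipig 1 the difference was 4.08 at 10d, 1.94 at 14d, 4.49 at 17d and, last, 1.13 at 20d. The values of minipig 2 at these days were -0.76, 0.72, 1.31 and 1.69. The 2 GMPs thus lay on opposite sides of the pre-TBI range, 0.22 to 1.39, at 10d. The value of minipig 2 there rests on 4 and 7 counts, a 3p share of 36.4% (exact 95% binomial interval 10.9% to 69.2%). That interval overlaps the pre-TBI shares, which ran from 53.8% to 72.8%. In counts, the 10d library of minipig 1 held 39 of ssc-miR-17-3p and 2 of ssc-miR-17-5p, a 3p share of 95.1% (exact 95% binomial interval 83.5% to 99.4%), and the 17d library held 26 and 1, a share of 96.3% (81.0% to 99.9%). In the same animal the share was 53.8% (25.1% to 80.8%) at C7, on 7 and 6 counts. It was 72.2% (54.8% to 85.8%) at C1 and 69.2% (61.4% to 76.4%) at 20d. The intervals at 10d and 17d overlap that of C1 but not those of C7 and 20d. PCR copies could not be removed, so these intervals hold for counting error alone.

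The level of ssc-miR-17-3p itself ranged from 7.81 to 9.11 log2 CPM before TBI. At Late it was at 10.28 in minipig 1, above every pre-TBI library, and at 8.53 in minipig 2, within their range, with 26 and 23 counts. The log2 fold change was 1.07 (SE 0.54, 95% interval -0.04 to 2.17, adjusted p = 0.228 in edgeR). It was not shared by the animals, with 2.14 within minipig 1 and -0.42 within minipig 2. Without minipig 1 the value was -0.19 and without minipig 2 it was 1.76, each resting on 1 Late library. At Mid the animals also went apart, by 0.85 in minipig 1 and -1.79 in minipig 2, and the fitted value was -1.44 (adjusted p = 0.404) without minipig 1 and 0.97 (adjusted p = 0.66) without minipig 2 in edgeR, both with an unadjusted p under 0.05.

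**Figure D3:**
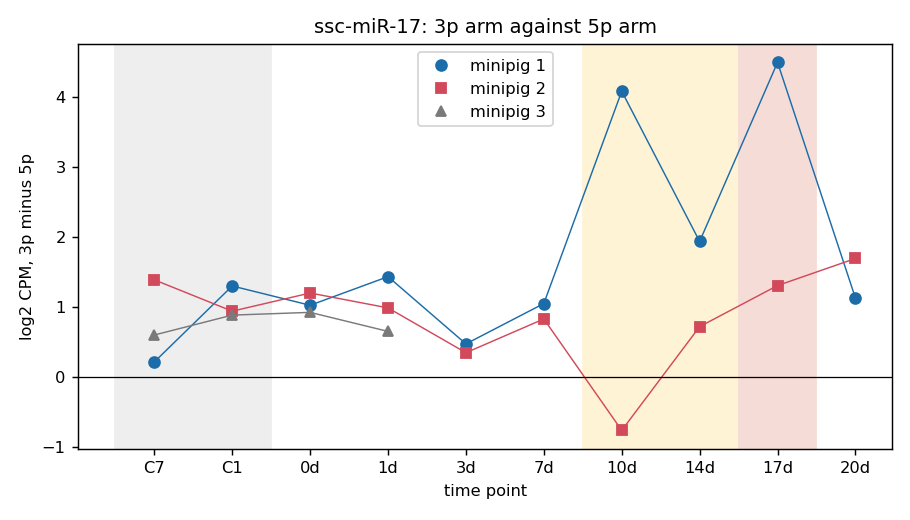
Log2 CPM of ssc-miR-17-3p minus that of ssc-miR-17-5p at each time point, 1 point per library, coloured by minipig; the line at 0 marks equal levels. Apart from minipig 2 at 10d every library lies above 0, and minipig 1 reaches 4.08 at 10d and 4.49 at 17d.

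The libraries of minipig 1 at C7, 10d and 17d stood apart in several of the 9 rows. They held 24341, 59291 and 29159 counts and were 3 of the 4 smallest, and they had the 3 highest values of ssc-miR-19a (9.05 to 9.49 log2 CPM) and of ssc-miR-20a (8.60 to 8.81), against at most 8.42 and 6.99 in the other 21. They also gave 2 of the 3 highest values of ssc-miR-17-3p and of ssc-miR-19b. The same libraries gave the zeros of ssc-miR-18a and ssc-miR-20b. Small libraries from minipig 2, at 10d with 35762 counts and at 17d with 63441, did not share the pattern. In them ssc-miR-19a was at 7.21 and 5.29 and ssc-miR-20a at 5.76 and 4.55 log2 CPM. The C7 library, with 12 counts of ssc-miR-19a and 9 of ssc-miR-20a, was drawn before TBI, and those at 10d and 17d after it. Whether TBI, depth, handling of these samples or the animal moves these values was not tested.

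Over 24 libraries, ssc-miR-19a and ssc-miR-20a had the highest Pearson r among the 36 pairs of the 9 rows, 0.88, and it was 0.73 over the 21 libraries without those 3. The lowest was -0.59, for ssc-miR-17-3p with ssc-miR-20b, which became 0.01 over the 21. The median over the 36 pairs was 0.07, beside -0.01 over all pairs of rows. These points share library, depth and animal, and correlations are given as descriptions. By likeness to the mean level of the 9 rows, the 5 other rows with the highest r were ssc-miR-532-3p (0.69), ssc-miR-142-5p (0.67), ssc-miR-497 (0.62), ssc-miR-186 (0.61) and ssc-miR-219b-3p (0.60). Singled out after its values were seen, ssc-miR-186 had the highest r with ssc-miR-19a of 402 rows outside the group, 0.94 over 24 libraries and 0.91 over the 21, and its own 3 highest levels, 15.75 to 16.62 log2 CPM, were those of the same 3 libraries.

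**Figure D4:**
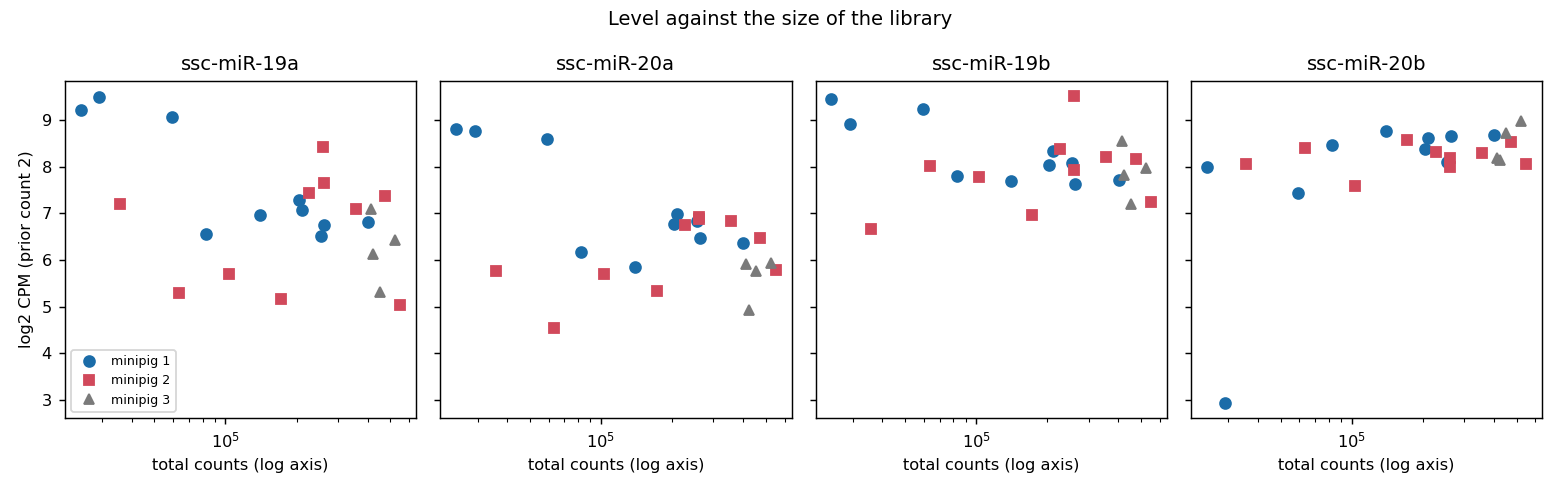
Level in log2 CPM (prior count 2) of ssc-miR-19a, ssc-miR-20a, ssc-miR-19b and ssc-miR-20b against the total counts of the library, on a log axis, coloured by minipig. The 3 small libraries of minipig 1 hold the highest ssc-miR-19a and ssc-miR-20a values, and minipig 2 at 10d, of like size, does not.

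Across the phases no row of the group passed an adjusted p of 0.05 in edgeR's quasi-likelihood test, nor in DESeq2. At Early 0 of 9 rows had an unadjusted p under 0.05, where 18.7% of the 411 rows did and 0.0% had an adjusted p under 0.05. At Mid 2 of 9 did, both lower, where 5.35% of all rows did and 0.0% after adjustment. At Late 0 of 9 did, where 22.6% of all rows did and 4.38% after adjustment. At LR 0 of 9 did, where 5.6% of all rows did and 0.0% after adjustment. DESeq2 gave the same unadjusted counts except at LR, where ssc-miR-19a had an adjusted p of 0.339 and was the 1 call, where DESeq2 called 58 of the 408 rows it gave a p, or 14.2%. The median log2 fold change of the 9 rows was -0.07 (Early), -0.15 (Mid), 0.14 (Late) and 0.02 (LR), beside 0.02, 0.05, 0.08 and -0.01 over all rows. All 4 phases share the pre-TBI libraries. All minipigs of a phase deviated from their own baseline in the same direction for 4 (Early), 6 (Mid), 2 (Late) and 4 (LR) of the 9 rows, beside 58.4%, 54.7%, 45.5% and 57.4% of all rows. With C1 alone as the baseline of minipig 1 they were 4, 3, 3 and 2 of the 9 rows, beside 40.9%, 42.6%, 46.2% and 47.2%.

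**Figure D5:**
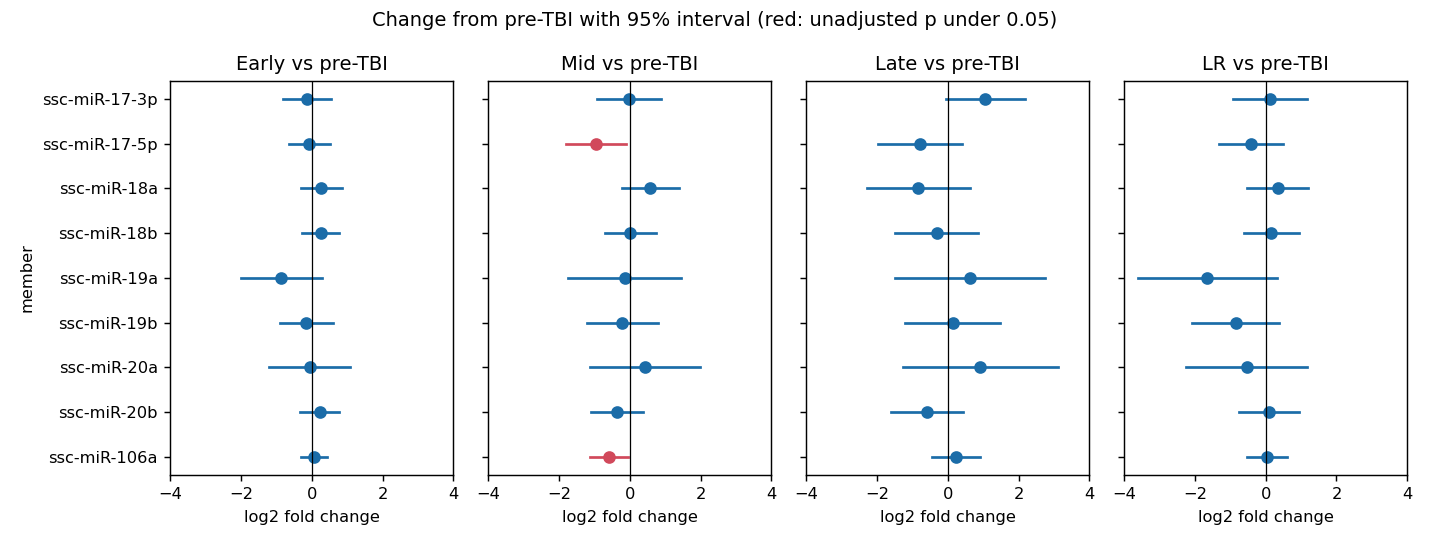
Log2 fold change against pre-TBI of each row at Early, Mid, Late and LR, with its 95% interval; red marks an unadjusted p under 0.05. Only ssc-miR-17-5p and ssc-miR-106a at Mid have intervals that leave out 0, and the intervals at Late and LR are wide.

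The 95% intervals give the size of change these libraries can show. At Early, those of 7 of 9 rows stayed within 1 log2 unit of 0 on both sides, and those of ssc-miR-19a and ssc-miR-20a did not. At Mid 2 rows had such an interval, at Late 1 and at LR 3. At Late the interval of ssc-miR-20a ran from -1.27 to 3.11 and that of ssc-miR-19a from -1.48 to 2.75, so neither interval leaves out 0 or a change of 1 log2 unit in either direction. Between LR and Late 0 of 9 rows had an unadjusted p under 0.05, where 32.1% of all rows did and 0.73% after adjustment, and the largest difference was that of ssc-miR-19a at -2.29 (SE 1.23, adjusted p = 0.196 in edgeR), which DESeq2 called at an unadjusted p under 0.05 (adjusted p = 0.0912), as it did 35.5% of rows. Over the 8 time points, each set against pre-TBI, 1 of 72 tests had an unadjusted p under 0.05, that of ssc-miR-17-5p at 14d, where 9.0% of all rows did, and 0 passed after adjustment, with a smallest adjusted p of 0.23. Over all rows and the 8 time points the shares were 10.6% and 0.882%. With a term for the minipig, 4 of 72 tests had an unadjusted p under 0.05, where 13.3% of all tests did. They were those of ssc-miR-19a at 7d (-1.81, adjusted p = 0.358), 14d (-2.15, adjusted p = 0.335) and 20d (-2.30, adjusted p = 0.256) and of ssc-miR-17-5p at 14d (-1.03, adjusted p = 0.335). Between C1 and C7, both before TBI, 0 of 9 rows had an unadjusted p under 0.05, where 0.73% of all rows did and 0.0% after adjustment, and 8 of 9 log2 fold changes were negative, with a median of -0.41 beside -0.02 over all rows. DESeq2 gave 1 unadjusted call there, ssc-miR-19b at -1.01 (adjusted p = 0.988), where it called 3.89% of rows.

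The cluster partners ssc-miR-92a and ssc-miR-363, whose seed differs from those of the 9 rows, had no adjusted call either, and ssc-miR-25 has no row. ssc-miR-92a was far more abundant, at 12.81 ± 0.67 (SD, n = 6) log2 CPM before TBI, against 8.97 ± 0.43 for ssc-miR-363. Their log2 fold changes were 0.03 (SE 0.26) and -0.27 (SE 0.27) at Early, -0.48 (SE 0.34) and 0.33 (SE 0.35) at Mid, -0.44 (SE 0.43) and 0.03 (SE 0.47) at Late, and -0.49 (SE 0.43) and -0.52 (SE 0.44) at LR.

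Plasma carries miRNAs of blood cells, so marker rows of these were summed beside the values of each phase. The 3 erythroid rows (ssc-miR-451, ssc-miR-144 and ssc-miR-486) summed to 11315 to 24430 CPM at Mid and 8359 to 10193 at Late against 8977 to 88288 before TBI, with 1 of 3 lower at an unadjusted p under 0.05 at Mid and again at Late. The 3 platelet rows (ssc-miR-126-5p, ssc-miR-126-3p and ssc-miR-191, with no row for ssc-miR-223) summed to 4433 to 12323 CPM at Mid and 2090 to 5842 at Late against 10564 to 20675 before TBI, with 1 of 3 lower at an unadjusted p under 0.05 at Late. The 2 myeloid rows (ssc-miR-142-5p and ssc-miR-142-3p, again without ssc-miR-223) summed to 187 to 418 CPM at Mid against 409 to 1462, with 1 of 2 lower at an unadjusted p under 0.05, and the 4 lymphocyte rows (ssc-miR-150, ssc-miR-342, ssc-miR-155-5p and ssc-miR-155-3p) to 1092 to 1663 against 1428 to 2408. At Late the myeloid sums were 330 and 760 CPM, and the lymphocyte sums 1979 and 2042 CPM with 1 of 4 rows higher at an unadjusted p under 0.05 and a median log2 fold change of 1.08. The 5 liver and 5 muscle rows ranged from 2940 to 8644 and from 1260 to 2108 CPM at Mid, from 3078 to 4797 and from 1445 to 2185 at Late, beside 4324 to 5993 and 1319 to 2309 before TBI. At LR, where ssc-miR-19a and ssc-miR-19b had lower means, the liver sums were 9349 and 11129 CPM, both above the pre-TBI range, with 1 of 5 rows higher and 1 lower at an unadjusted p under 0.05. The platelet sums there were 5834 and 11359 CPM with 1 of 3 rows higher, the muscle sums 1651 and 2125 with 1 of 5 lower, the erythroid sums 10007 and 20063, the lymphocyte sums 1276 and 1558 and the myeloid sums 390 and 449 CPM. At Early the platelet sums ran from 11010 to 74920 CPM with a median log2 fold change of 0.76 and 1 of 3 rows higher, 1 of 5 liver rows was lower, 1 of 5 muscle rows was higher and 1 lower, and the sums of the other lists overlapped the pre-TBI range. These unadjusted marker calls stand beside those of all rows, 18.7% (Early), 5.35% (Mid), 22.6% (Late) and 5.6% (LR). None of the 6 lists had a row with an adjusted p under 0.05 in a phase. The level of ssc-miR-451 minus that of ssc-miR-23a, a gauge of red cell lysis, was 1.11 ± 1.73 (SD) in pre-TBI, 1.29 ± 1.47 in Early, -0.75 ± 0.68 in Mid, -0.86 ± 0.79 in Late and 0.88 ± 1.18 in LR libraries. The lowest sum at Mid was below the lowest pre-TBI sum in 5 of 6 lists, the erythroid list being the exception, and the lowest value of the gauge was -1.31 at Mid beside -1.19 before TBI. The part of these cells in the lower means of ssc-miR-17-5p and ssc-miR-106a at Mid and of the miR-19 rows at LR was not tested.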

How the data were processed

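Plasma small RNA was sequenced from 3 minipigs at 10 time points. The authors trimmed the reads with Cutadapt, aligned them to the pig genome (ssc5) with Bowtie and then to miRBase, quantified known ssc-miRNAs with miRDeep2, and deposited their raw counts, without normalization, as 1 table of 411 rows. The submitters' processing notes name bcl2fastq, cutadapt and Bowtie2 2.2.3.0. How reads matching several miRNAs were counted is not given in the sources used here.

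Libraries under 1000 counts were left out. The counts were tested with edgeR 4.0.16 in R 4.3.3 by the quasi-likelihood test, with TMM factors, rows kept if their CPM exceeded 0.5 in 3 or more libraries, and 5 phase groups in 1 fit. Time points used a fit with 9 groups and C1 against C7 one with 10. P-values were adjusted by Benjamini-Hochberg over the 411 rows. Fold changes used a prior count of 0.125. The SE was taken as |log2 fold change| over the root of F, and where edgeR raises p to a Poisson bound the interval and p need not match. Reads and alignments were not analysed here. DESeq2 1.42.0 was an alternative. Tables and figures used Python 3.11.15 with numpy 2.4.6, pandas 2.3.3, scipy 1.17.1 and matplotlib 3.10.9.

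The labels tie libraries to minipigs, so libraries are paired by animal. The libraries' deviations from their phase correlated by 0.169 on average in 78 pairs of the same minipig and by -0.102 in 130 pairs of different minipigs. No libraries of a phase were duplicates, with a smallest chi-square per degree of freedom of 21.8 over 68 pairs. Repeat libraries of 1 animal within a phase were treated as separate in the main test, so its p-values do not measure the spread between animals alone. Alternatives were RLE factors, library size only, no filter, a stricter filter of 10 counts in at least 12 of 24 libraries, DESeq2, a replicate block, leaving out each minipig, only the 2 groups compared, counts thinned to 24341 per library and, chosen after seeing the data, leaving out the C7 library of minipig 1. The rule named every member, cluster partners, the 5 rows most like the members' mean, the red cell lysis pair and marker rows. Members and lists were chosen with earlier results of these data known. Marker values are sums of CPM. Seeds were copied from the study's own list, and full mature sequences are not shown here.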

Additional observations from a re-analysis of the deposited data

Results flagged for a closer look

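In 27 groups of 4 to 10 libraries, 1 row in 1 phase each, 3 held a library farther from the others than Dixon's 95% critical value allows, where chance flags about 1 in 20. ssc-miR-18a before TBI had its lowest value, 2.94 log2 CPM, in minipig 1 at C7, where it had 0 counts. ssc-miR-106a before TBI had its lowest value, 6.51 log2 CPM, in minipig 1 at C1. ssc-miR-20a at Mid had its highest value, 8.60 log2 CPM, in minipig 1 at 10d.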

How the results depend on the processing

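Log2 fold changes of the 9 rows in 4 phases, 36 values, were refitted under each alternative. No filter and a stricter filter reversed 0 of 36 values. No value passed an adjusted p of 0.05 under any alternative run except without minipig 2, while the sign of many values changed, among them some far from 0. The cause of the changes below was not tested. At Mid the values of ssc-miR-17-5p and ssc-miR-106a, and at Early and LR those of ssc-miR-19a, kept their direction in all alternatives, but not their size.

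These values reversed. With RLE factors ssc-miR-17-3p at Mid was 0.0202. With DESeq2 ssc-miR-17-3p at Mid was 0.0088 and ssc-miR-106a at LR -0.014. With the replicate block by minipig (paired) ssc-miR-17-3p at LR was -0.029, ssc-miR-18b at Mid -0.054, ssc-miR-19a at Late -0.021, ssc-miR-19b at Late -0.039 and ssc-miR-20a at Mid -0.16. With library size only, which moved the median of all rows at Late from 0.08 to -0.21, ssc-miR-18b at Mid was -0.062, ssc-miR-19b at Late -0.20, and ssc-miR-106a -0.065 at Early, -0.057 at Late and -0.047 at LR. With only the 2 groups compared ssc-miR-18b at Mid was -0.024. With thinned counts ssc-miR-17-5p at LR was 0.21, ssc-miR-18a at LR -0.068, ssc-miR-18b -0.19 at Mid and -0.76 at LR, ssc-miR-19a at Late -0.0202, ssc-miR-19b at Late -0.35, and ssc-miR-106a -0.032 at Early, -0.0003 at Late and -0.46 at LR. Without the C7 library of minipig 1, chosen after seeing the data like the use of C1 alone as that animal's baseline, ssc-miR-17-3p at LR was -0.015, ssc-miR-18b at Mid -0.021, ssc-miR-19a at Mid 0.10, ssc-miR-20a at Early 0.22, ssc-miR-20b at LR -0.081, and ssc-miR-106a -0.0056 at Early and -0.089 at LR.

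Leaving out 1 minipig at a time, the lowest and highest of the values that changed sign or adjusted call were -1.44 and 0.97 for ssc-miR-17-3p at Mid, -0.19 and 1.76 at Late and -0.045 and 0.24 at LR. They were -0.35 and 0.018 for ssc-miR-17-5p at Early and -0.072 and 0.55 for ssc-miR-18a at LR. For ssc-miR-18b they were -0.70 and 0.70 at Mid and -0.23 and 0.51 at LR. For ssc-miR-19a they were -1.16 and 0.84 at Mid and -2.48 and 1.90 at Late, and for ssc-miR-19b -0.89 and 0.23 at Mid and -0.25 and 0.21 at Late. For ssc-miR-20a they were -0.47 and 0.19 at Early, -0.71 and 1.51 at Mid and -2.18 and 2.30 at Late. For ssc-miR-20b they were -9.30 and 0.15 at Late and -0.14 and 0.20 at LR, of which -9.30 (adjusted p = 0.0097 in edgeR) sets 1 library with 0 counts against the baseline, depends on the prior count and is no bound. For ssc-miR-106a they were -0.026 and 0.071 at Early, -0.48 and 0.32 at Late and -0.25 and 0.12 at LR. Without such a change, ssc-miR-17-5p ran from -2.18 to -0.55 at Late and ssc-miR-19a from -2.75 to -0.73 at LR, and ssc-miR-18a at Late reached -7.20 without minipig 2, again from a library with 0 counts and no bound. Without minipig 1 or 2, Late, LR and each time point from 3d on rest on 1 library, assumed to vary like the other groups.

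The number of the 9 rows with an unadjusted p under 0.05 moved as follows. With the replicate block it was 1 at Early, 1 at Mid, 1 at LR and 4 over the 8 time points, where 22.4%, 6.81%, 11.9% and 13.3% of all rows were called, and with library size only 0 at Mid, 1 at LR, 1 between C1 and C7 and 0 over the time points (2.68%, 6.57%, 0.973% and 8.73% of all rows). With DESeq2 it was 1 at LR, 1 between LR and Late, 1 between C1 and C7 and 2 over the time points (14.2%, 35.5%, 3.89% and 16.1%). With only the 2 groups compared it was 1 at Mid and 1 between C1 and C7 (7.06% and 0.973%), and with thinned counts 0 at Mid (3.89%). The log2 fold changes of ssc-miR-17-5p and ssc-miR-106a at Mid were -0.96 and -0.60 in the main fit. They were -1.02 and -0.67 with library size only, -1.01 and -0.64 with only the 2 groups compared and -0.87 and -0.82 with thinned counts. Leaving out 1 minipig at a time it was 0 to 2 at Mid (ssc-miR-17-3p without minipig 1, and ssc-miR-17-3p and ssc-miR-17-5p without minipig 2), 0 to 2 at Late, 0 to 1 at LR, 0 to 3 between LR and Late, 0 to 2 between C1 and C7 and 1 to 4 over the time points, where over all rows it was 4.38% to 7.79%, 14.6% to 32.1%, 4.62% to 15.8%, 9.49% to 32.6%, 0.243% to 7.79% and 5.93% to 11.6%. After adjustment it was 0 to 2 at Late, 0 to 1 between LR and Late and 0 to 2 over the time points, and all these adjusted calls came without minipig 2 and were those of ssc-miR-17-3p and ssc-miR-20b. Without minipig 2 the shares of all rows with an adjusted call were 18.7% at Late, 16.1% between LR and Late and 1.64% over the time points.

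Limits include the lack of unirradiated animals, 2 minipigs from 3d on, 4 libraries at Mid, 2 at Late and 2 at LR. Another is that none of the 9 rows had more than 39 counts in a Mid or Late library. A row with so few counts has a counting error that widens its interval. Interval width did not follow counts alone. The SE was 0.59 for ssc-miR-19b at LR on 68 and 104 counts, and 0.26 for ssc-miR-106a at Mid on 4 to 15 counts.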
